A study of Mus musculus with 8 samples.

Results

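The polyamine enzymes and antizymes of mouse male germ cells were followed over 4 stages of spermatogenesis. They were chosen by name, as all probe sets annotated only to Odc1, Oaz1, Oaz2, Oaz3, Azin1, Srm, Sms, Sat1, Amd1 or Smox. This gave 20 of the 45037 probe sets that are not controls, for 8 of the 10 genes, of 18193 genes on the array. Each of the 3 probe sets that list Sms also lists its pseudogene, no probe set used here lists Amd1, and neither gene is given a value. The groups were type A spermatogonia and type B spermatogonia, which divide by mitosis, pachytene spermatocytes, cells in meiotic prophase, and round spermatids, the haploid products of meiosis. Each stage had 2 Mouse 430 2.0 oligonucleotide arrays, each from total RNA of its own germ cell preparation from mice of the BL/6-129 strain. The labels give no age, genotype, treatment or method of purification, and no pooling of animals.

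Putrescine, spermidine and spermine are small positively charged molecules that bind RNA and DNA and that dividing cells need. Odc1, ornithine decarboxylase, makes putrescine; Srm, spermidine synthase, and Sms, spermine synthase, extend it with a group supplied by Amd1, S-adenosylmethionine decarboxylase. Sat1 acetylates spermidine and spermine for breakdown or export, and Smox oxidises spermine. Antizymes bind ornithine decarboxylase and send it to the proteasome, and their own translation needs a ribosomal frameshift that polyamines favour. Oaz1 and Oaz2 are found in many tissues, Oaz3 is known as the antizyme of haploid male germ cells, and the antizyme inhibitor Azin1 resembles ornithine decarboxylase and binds antizymes in its place.

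Promoter windows from RefSeq (GRCm38.p6, 250 bases before to 50 after the annotated start) matched 7 of the 10 members, in 8 windows. Those of Oaz1, Oaz2 and Odc1 are printed because these genes had high signal in every stage and differed in course by brightest probe set. From type A to pachytene spermatocytes the deposited signal of Oaz1 fell, while that of Oaz2 and that of Odc1 both rose. Capitals mark matches on either strand to 6 motifs: the cAMP response element TGACGTCA and its shorter form TGACG, which is the start of the longer motif, the E-box CACGTG, the TATA box TATAAA, the GC box GGGCGG and the CCAAT box. All 3 windows are on the plus strand, at chr10:80826406-80826705 for Oaz1, chr9:65676298-65676597 for Oaz2 and chr12:17544623-17544922 for Odc1.
Oaz1: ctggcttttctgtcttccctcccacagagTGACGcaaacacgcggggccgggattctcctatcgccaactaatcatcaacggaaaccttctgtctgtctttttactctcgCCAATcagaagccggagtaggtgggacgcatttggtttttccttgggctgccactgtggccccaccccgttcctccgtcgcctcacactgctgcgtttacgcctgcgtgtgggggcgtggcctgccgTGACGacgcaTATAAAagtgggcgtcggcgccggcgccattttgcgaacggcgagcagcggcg
Oaz2: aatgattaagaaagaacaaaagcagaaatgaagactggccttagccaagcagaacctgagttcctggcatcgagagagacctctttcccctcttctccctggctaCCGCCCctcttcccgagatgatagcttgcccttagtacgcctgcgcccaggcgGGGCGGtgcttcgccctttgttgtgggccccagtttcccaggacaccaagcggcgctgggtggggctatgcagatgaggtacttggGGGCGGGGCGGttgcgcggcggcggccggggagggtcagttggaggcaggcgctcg
Odc1: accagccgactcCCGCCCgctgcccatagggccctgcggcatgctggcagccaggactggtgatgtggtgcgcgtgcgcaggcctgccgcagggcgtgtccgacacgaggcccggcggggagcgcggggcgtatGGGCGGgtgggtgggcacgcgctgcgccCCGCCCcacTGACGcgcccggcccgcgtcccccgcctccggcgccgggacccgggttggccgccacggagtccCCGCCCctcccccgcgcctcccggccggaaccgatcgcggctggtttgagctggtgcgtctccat
The Oaz1 window held 2 matches to the short form TGACG, 1 to the TATA box and 1 to the CCAAT box. The TATAAA match began at -3 from the annotated start, and the TGACG matches at -221 and -13. Whether the TATAAA match acts as a TATA box was not tested. The Oaz2 window held 4 matches to the GC box, 2 of them overlapping, and no other motif. The Odc1 window, with a GC content of 78.0% against 60.0% for Oaz1 and 61.7% for Oaz2, held 4 matches to the GC box and 1 to the short form TGACG. Among all 32851 promoter windows of this length, 20.8% held the short form, 13.6% the TATA box, 37.4% the CCAAT box and 35.7% the GC box. The full cAMP response element and the E-box were in none of the 3 windows, and in 1.79% and 7.15% of all windows.

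The deposited values are MAS5 signals on a linear scale, scaled to the same mean on each array, and a change here is a change in share of that mean. Median signal was 33.7 to 51.9 and the highest signal on an array 5679 to 6988. A gene's brightest probe set on average, its representative, gave its value, and signals were tested as log2(signal + 16) with limma in 1 fit over 28623 probe sets, called at a Benjamini-Hochberg adjusted p under 0.05. Log2 changes are on this scale, and their ± is the limma standard error (2 arrays against 2). Of the 20 probe sets, 17 passed the filter on low signal, and 14155 genes were tested.

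Spermatogonial and round spermatid marker genes followed the labels, with 1 array apart, and pachytene markers did so less closely. Summed over 5 pachytene markers (Piwil1, Spo11, Hspa2, Sycp3, Ccna1), the spermatogonial arrays read 1898.5 to 3771.4. The pachytene arrays read 9613.3 and 9571.9, and the round spermatid arrays 7519.6 and 7216.8. Mean Ccna1 signal was 543.05 in pachytene cells and 1183.2 in round spermatids, and that of Hspa2 3822.9 and 3826.85. Spermatogonial markers (Zbtb16, Gfra1, Kit, Stra8, Dmrt1) summed to 348.5 to 780.1 on pachytene and spermatid arrays, against 2799.1 to 4400.3 on spermatogonial arrays. Summed over 5 markers, round spermatid genes (Prm1, Prm2, Tnp1, Tnp2, Acrv1) read 70.9 and 70.0 in type A, 52.8 and 1454.9 in type B, 1951.8 and 2462.7 in pachytene cells, and 19617.1 and 23481.3 in round spermatids. Type B replicate 2 thus stood near the pachytene arrays for these genes and far from type B replicate 1. The log2 signals of the type B replicates correlated across tested genes at r = 0.886, against 0.962 to 0.981 in the other stages. Summed over 5 stromal and peritubular markers (Col1a1, Col3a1, Acta2, Dcn, Myh11), the pachytene and spermatid arrays read 668.8 to 1104.7 and the spermatogonial arrays 8575.3 to 13081.5. Sertoli cell and macrophage sums were 133.5 to 383.4 and 181.1 to 338.1 on pachytene and spermatid arrays. On spermatogonial arrays they were 748.2 to 1622.5 and 395.8 to 793.2. Leydig cell sums, over the 4 of 5 listed genes with a probe set, were 630.9 to 1497.4 on spermatogonial arrays. They were 516.8 and 945.0 in pachytene cells and 88.5 and 88.8 in round spermatids. Mean Cyp17a1 and Cyp11a1 signals were higher in pachytene cells than in type A, and those of Star and Hsd3b1 lower. In preparations of many cells, fewer cells of a type cannot be told apart from less RNA in each.

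From type A spermatogonia to pachytene spermatocytes and round spermatids, ornithine decarboxylase transcript rose, the ubiquitous antizyme Oaz1 and the catabolic gene Sat1 fell, and Oaz3 reached its highest signal in round spermatids; the fall of Oaz1 was not called relative to ribosomal protein genes. In pachytene spermatocytes against type A spermatogonia, 3 of the 8 member genes were higher (Odc1, Oaz2 and Oaz3) and 3 lower (Sat1, Smox and Oaz1), where 26.6% of all tested genes were higher and 34.8% lower. In round spermatids against type A spermatogonia, 2 were higher (Odc1 and Oaz3) and 4 lower (Srm, Sat1, Smox and Oaz1), against 27.5% and 41.0% of all genes. With arrays centred on ribosomal protein genes, 4 were higher and 1 lower in each of these comparisons, and with centring on the 75th percentile 4 and 1 in the first and 3 and 3 in the second. The median log2 change of the members was 0.02 and -0.36 in these comparisons, against -0.14 and -0.31 over all tested genes. Among 8 genes these shares are near the background and are no result about the members.

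**Figure D1:**
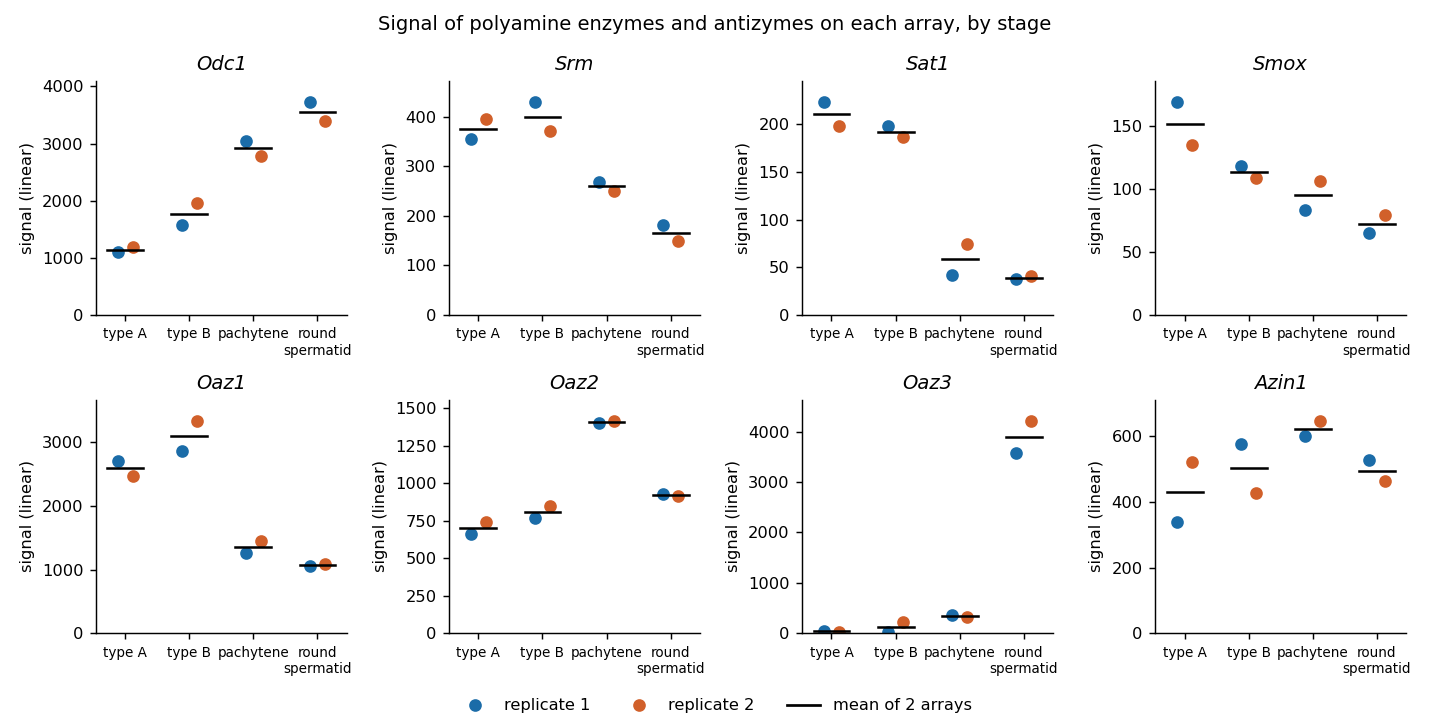
Linear signal (vertical axis, from 0) of the representative probe set of each of the 8 genes on every array, by stage (horizontal axis); points are arrays, coloured by replicate number, and bars are means of 2. Odc1 and Oaz3 were highest in round spermatids, Oaz2 in pachytene spermatocytes, and Sat1, Srm, Smox and Oaz1 had higher deposited signals in both spermatogonial stages than in the later ones; with ribosomal centring Smox and Srm read above 0 in pachytene spermatocytes against either spermatogonial stage.

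Odc1, the enzyme that starts polyamine synthesis, read 1102.3 and 1179.6 in type A, 1573.9 and 1966.6 in type B, 3050.9 and 2789.6 in pachytene cells, and 3722.5 and 3399.3 in round spermatids. No stage overlapped another. The rise was 1.34 ± 0.21 log2 in pachytene spermatocytes against type A (adjusted p = 9.998e-04, 2.54-fold) and 1.63 ± 0.21 in round spermatids against type A (adjusted p = 3.187e-04, 3.09-fold). Both calls held under all 17 alternatives tried. Between round spermatids and pachytene spermatocytes the difference was 0.28, with a 95% interval of -0.19 to 0.76. The other 2 probe sets of Odc1 rose as well, by 1.91 ± 0.23 and 2.47 ± 0.24 in round spermatids against type A. The larger of these came from 1427364_a_at, the dimmest of the 3, which read 766.3 and 879.8 in round spermatids, against 132.2 and 138.8 in type A.

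Srm, which turns putrescine into spermidine, read 355.8 and 394.4 in type A, 428.9 and 371.3 in type B, 269.0 and 250.0 in pachytene cells, and 180.8 and 149.2 in round spermatids. The later stages lay below both spermatogonial stages with no overlap. It fell by 1.12 ± 0.20 log2 in round spermatids against type A (adjusted p = 0.0019), and read -0.50 ± 0.20 in pachytene spermatocytes against type A (adjusted p = 0.0657). Thus Odc1 and Srm, neighbours in the same route, had changes of opposite sign in round spermatids. The Srm value was -0.31 (adjusted p = 0.437) when arrays were centred on ribosomal protein genes.

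Of the genes of polyamine breakdown, Sat1 fell against type A under every scaling tried, and Smox did not. Sat1, an X-linked gene, read 223.1 and 197.7 in type A, 197.8 and 186.2 in type B, 42.0 and 74.2 in pachytene cells, and 37.4 and 40.5 in round spermatids. Its change was -1.64 ± 0.25 log2 in pachytene spermatocytes against type A (adjusted p = 9.277e-04) and -2.04 ± 0.25 in round spermatids against type A (adjusted p = 2.656e-04), a fold of 4.12, and both calls held under all 17 alternatives. On the same arrays, 72.1% of 477 X-linked genes were lower in pachytene spermatocytes against type A, with a median of -1.71, against 33.5% of autosomal genes. In round spermatids against type A 61.8% of X-linked genes were lower, with a median of -1.33, against 40.4% of autosomal genes. The part of the chromosome in the fall of Sat1 was not tested. In round spermatids against pachytene spermatocytes the median X-linked change was 0.34, while Sat1 read -0.40, with a 95% interval of -0.97 to 0.18.

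Smox, the spermine oxidase on chromosome 2, read 168.8 and 134.6 in type A, 118.4 and 108.9 in type B, 83.4 and 106.3 in pachytene cells, and 64.7 and 78.9 in round spermatids. It was lower by a smaller margin than Sat1, at -0.93 ± 0.22 log2 in round spermatids against type A (adjusted p = 0.00671) and -0.60 ± 0.22 in pachytene spermatocytes against type A (adjusted p = 0.0477). The spermatid value read -0.12 (adjusted p = 0.749) with ribosomal centring, -0.50 (0.0858) after quantile normalization, -0.49 (0.0941) with 75th percentile centring and -0.81 (0.0505) without spermatid replicate 1. The pachytene value turned to 0.17 (adjusted p = 0.639) when arrays were centred on ribosomal protein genes and kept its call in 6 of 17 alternatives. Its other probe set lay at 29.1 or below on every array and was not tested.

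By their representative probe sets, the 3 antizymes went 3 ways. Oaz1 read 2708.3 and 2468.6 in type A, 2858.1 and 3335.2 in type B, 1263.9 and 1449.9 in pachytene cells, and 1063.1 and 1081.8 in round spermatids. It fell by 0.93 ± 0.20 log2 in pachytene spermatocytes against type A (adjusted p = 0.00497) and by 1.26 ± 0.20 in round spermatids against type A (adjusted p = 9.492e-04, 2.39-fold). The stromal and peritubular marker sum and the Sertoli cell sum were lower on the same arrays, and their part in the fall of Oaz1, Sat1, Srm and Smox was not tested. Relative to ribosomal protein genes Oaz1 read -0.16 (adjusted p = 0.65) and -0.45 (0.191) in these comparisons, and with arrays centred on the 75th percentile -0.54 (0.0527) in the first.

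Oaz2 peaked in pachytene spermatocytes by 1426763_at but not by 1426764_at. Its representative probe set 1426763_at read 661.9 and 744.3 in type A, 769.3 and 852.6 in type B, 1402.5 and 1417.8 in pachytene cells, and 932.2 and 913.0 in round spermatids. It rose by 0.99 ± 0.19 log2 in pachytene spermatocytes against type A (adjusted p = 0.0029), a call that held under all 17 alternatives, and read 0.39 ± 0.19 in round spermatids against type A (adjusted p = 0.108). This spermatid value was called higher with a pseudocount of 64 (0.37, adjusted p = 0.0435), with 75th percentile centring (0.83, 0.00764) and with ribosomal centring (1.20, 0.00398), and it was -0.03 after quantile normalization. The probe set 1426764_at had no peak: it read 918.7 and 1024.4 in round spermatids, against 872.0 and 1025.3 in pachytene cells, and it was higher than in type A by 0.87 ± 0.21 in pachytene spermatocytes and by 0.91 ± 0.21 in round spermatids (adjusted p = 0.00773 and 0.00553). The third, 1442541_at, lay between 52.7 and 78.0 on all arrays and passed in no comparison as deposited; in pachytene spermatocytes against type A it passed after quantile normalization (0.72, adjusted p = 0.0164) and with 75th percentile (0.69, 0.0177) or ribosomal centring (1.08, 0.0103).

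Oaz3 was a transcript of round spermatids. Its representative probe set 1437011_x_at read 38.5 and 34.6 in type A, 27.8 and 215.8 in type B, 357.5 and 324.5 in pachytene cells, and 3584.0 and 4215.8 in round spermatids. No earlier array came near the 2 spermatid arrays, and type B replicate 2 lay between type B replicate 1 and the pachytene arrays. The change was 3.45 ± 0.64 log2 in round spermatids against pachytene spermatocytes (adjusted p = 0.00552, 10.9-fold) and 6.22 ± 0.64 in round spermatids against type A (adjusted p = 1.243e-04, 74.3-fold). Pachytene spermatocytes were higher than type A by 2.76 ± 0.64 (adjusted p = 0.00676). The type A values lay below the median of their arrays, so the fold against them depends on the constant added: the log2 change was 6.70 with a pseudocount of 1 and 5.30 with a pseudocount of 64. The call between round spermatids and pachytene spermatocytes was lost without spermatid replicate 2, where the change was 3.34 ± 0.857. All stages share the fit, so the gap between the type B replicates enters the standard errors of Oaz3. With type B replicate 1 or type B replicate 2 left out, this change stayed at 3.45, with a standard error of 0.191. A single type B array adds no spread within its stage.

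The sum of the 5 spermatid markers was high or low on the same arrays as Oaz3, type B replicate 2 included. Whether the Oaz3 signal of the pachytene arrays and of type B replicate 2 came from the labelled cells or from spermatids among them was not tested. The 5 genes most like Oaz3, by Pearson correlation of log2(signal + 16) over the 8 arrays among the tested genes, were Hils1, Spz1, Gtsf1l, Gm9999 and Spata46, with r of 0.998 to 0.999. Hils1, a linker histone of spermatids, read 121.6 in type B replicate 2, 178.7 and 147.1 in pachytene cells, and 2770.9 and 3208.5 in round spermatids. In all, 64 genes correlated with Oaz3 above 0.99, against 10 for Oaz1 and 13 for Oaz2. The nearest to Oaz1 was Nipsnap2 (0.995) and the nearest to Oaz2 was Elp5 (0.998). The arrays share their 4 stages, so these values describe the stage profile, and no test was made.

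**Figure D2:**
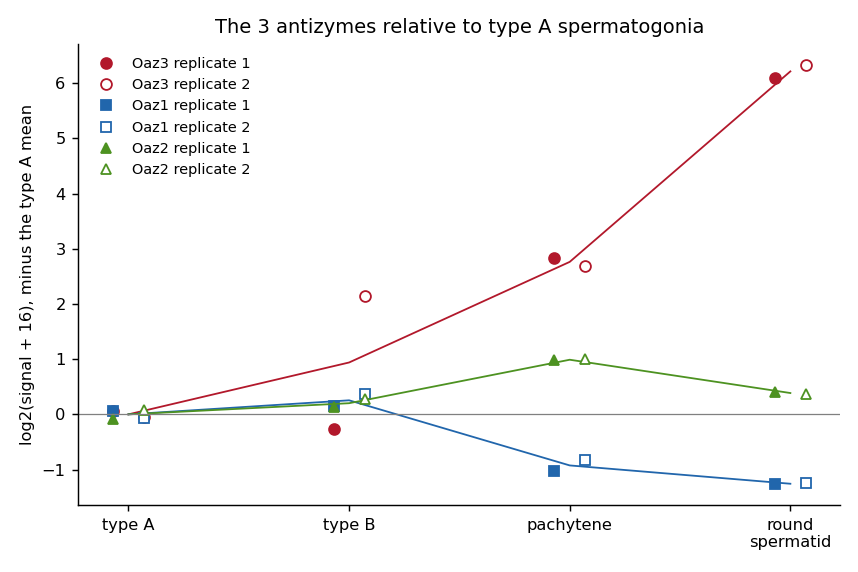
Log2(signal + 16) of Oaz3, Oaz1 and Oaz2 on each array minus the mean of the type A arrays (vertical axis), by stage (horizontal axis); filled and open points are replicates 1 and 2, and lines join the means. Oaz3 reached 6.10 and 6.33 in round spermatids, Oaz1 -1.27 and -1.25 and Oaz2 0.40 and 0.37, and the Oaz3 value of type B replicate 2 was 2.14 against -0.26 for replicate 1.

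The change of Oaz3 was set against that of the other antizymes within each array. In round spermatids against pachytene spermatocytes, Oaz3 rose by 3.78 ± 0.78 log2 more than Oaz1 (95% interval 1.61 to 5.96) and by 4.06 ± 0.81 more than Oaz2 (1.80 to 6.31), with ± the standard error from the spread within the 4 stages. In round spermatids against type A the margins were 7.47 ± 0.78 and 5.83 ± 0.81. In pachytene spermatocytes against type A, the margin over Oaz1 was 3.69 (1.51 to 5.87), and that over Oaz2 was 1.77, with an interval of -0.48 to 4.03. An exact permutation test of the 4 stages, in which the 8 arrays were paired in every possible way, gave p = 0.0286 for Oaz3 against Oaz1 and p = 0.0857 for Oaz3 against Oaz2, or 0.0572 and 0.0857 adjusted over these 2 pairs. Neither passed 0.05 after adjustment; the smallest p this design can give is 0.00952. The gap between the type B replicates enters the standard errors. The first 2 margins use no type B array, so leaving out either type B array cannot change them. Their standard errors were then 0.159 and 0.166, since a single type B array adds no spread within its stage.

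**Figure D3:**
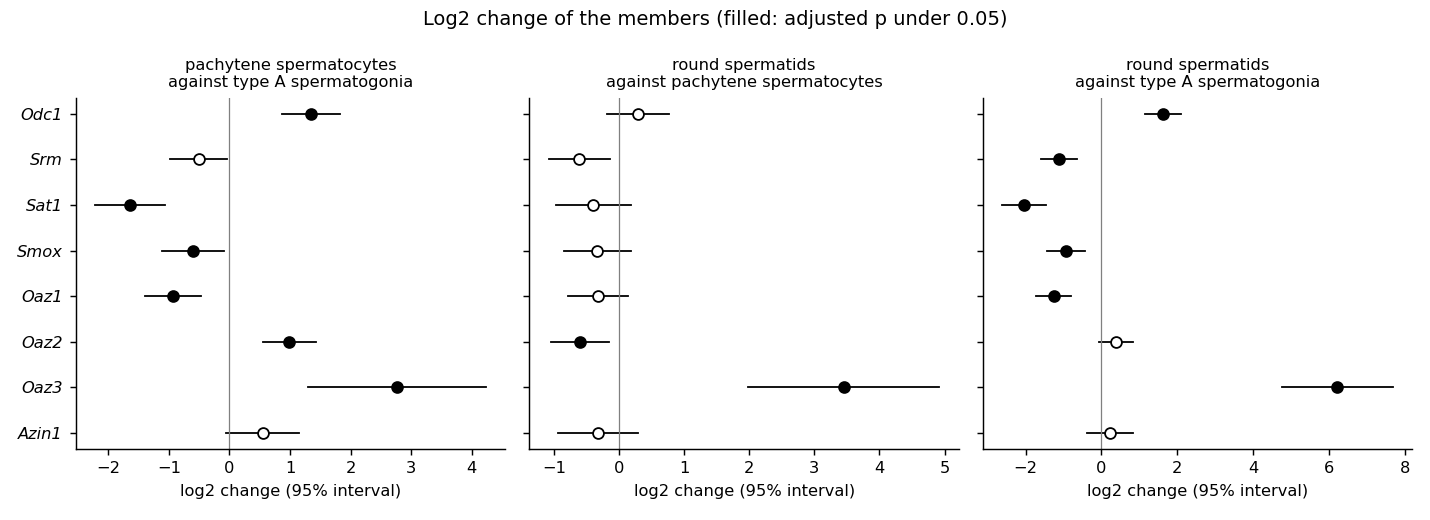
Log2 change with its 95% interval (horizontal axis) of the 8 member genes in 3 comparisons; filled points passed the test. Oaz3 was higher in all 3, Odc1 in both comparisons with type A, and Oaz2 in pachytene spermatocytes against type A. In round spermatids against pachytene spermatocytes Oaz2 was called lower, a call kept in 6 of 17 alternatives. Its probe set 1426764_at, not drawn, read 0.04 there.

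Probe sets of 1 gene differed in their course. Oaz1, Sat1 and Srm each had only 1 probe set of their own, so their courses could not be set against a second. For Oaz1, 1 more probe set was left out because it also lists another gene. Of the 6 probe sets of Oaz3, 1437010_a_at followed the representative, with 3418.2 and 3779.0 in round spermatids, against 11.2 and 12.8 in type A. The other 4 lay at 53.2 or below on every array. Of these, 1453115_at read 39.9 and 44.6 in round spermatids, against 5.5 and 2.7 in pachytene cells, and 1432571_at read 41.3 and 53.2 in round spermatids, against 29.0 and 2.7 in pachytene cells. Both passed the filter on low signal through the round spermatid arrays alone, so no test of them is given. 1429341_at and 1454279_at did not pass the filter. Median signal on the arrays was 33.7 to 51.9, so these 4 were dim probe sets.

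Azin1, the antizyme inhibitor, read 338.7 and 521.9 in type A, 574.6 and 427.6 in type B, 598.7 and 645.9 in pachytene cells, and 525.7 and 461.9 in round spermatids by its representative probe set 1422702_at. It passed in no comparison, with 0.22 in round spermatids against type A and a 95% interval of -0.39 to 0.83. With ribosomal centring it was called higher in pachytene spermatocytes against type B and against type A and in round spermatids against type A, at 1.49, 1.32 and 1.03 (adjusted p = 0.00314, 0.00807 and 0.0269), and with 75th percentile centring in pachytene spermatocytes against type A, at 0.93 (0.0213). The probe set 1450714_at went down. It read 286.3 and 351.4 in type A, 239.3 and 187.7 in pachytene cells, and 86.4 and 68.4 in round spermatids, with a change of -1.84 ± 0.24 in round spermatids against type A (adjusted p = 3.36e-04) and -1.29 ± 0.24 in round spermatids against pachytene spermatocytes (adjusted p = 0.00523). The intervals of the 2 probe sets in round spermatids against type A, -0.39 to 0.83 and -2.39 to -1.30, did not meet. The third, 1430984_at, read 0.60, with an interval of -0.32 to 1.52. The direction of Azin1 in spermatids therefore depended on the probe set.

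**Figure D4:**
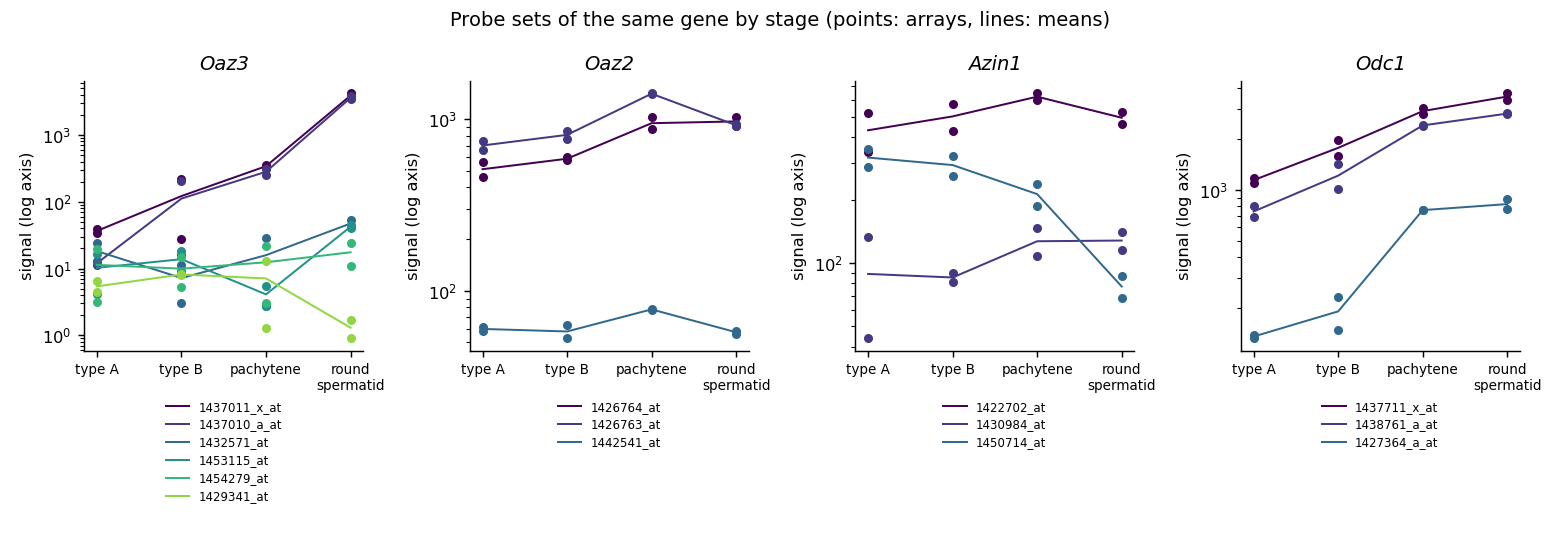
Signal on a log axis (vertical) of every probe set of Oaz3, Oaz2, Azin1 and Odc1 by stage (horizontal axis); points are arrays, lines join the means of 2 arrays, and each colour is a probe set. The 3 Odc1 probe sets rose together, 2 of 6 Oaz3 probe sets reached 3418.2 or more in round spermatids, and 1 of 3 Azin1 probe sets went down.

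Round spermatids were next set against pachytene spermatocytes, the step across the meiotic divisions. Oaz3 was the 1 member gene higher and Oaz2 the 1 lower, where 14.9% of all tested genes were higher and 17.0% lower. Oaz2 read -0.60 ± 0.19 (adjusted p = 0.0491) and passed in only 6 of 17 alternatives, and its probe set 1426764_at read 0.04. Srm read -0.61 ± 0.20 (adjusted p = 0.0597), Oaz1 -0.33, Smox -0.33 and Azin1 -0.33.

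In pachytene spermatocytes against type B spermatogonia, 3 member genes were higher and 3 lower, against 24.0% and 31.4% of all tested genes, and 5 higher and 0 lower with arrays centred on ribosomal protein genes. Odc1 was higher by 0.72 ± 0.21, Oaz2 by 0.79 ± 0.19 and Oaz3 by 1.82 ± 0.64 (adjusted p = 0.0199, 0.0101 and 0.0437), while Sat1, Oaz1 and Srm read -1.52 ± 0.25, -1.18 ± 0.20 and -0.59 ± 0.20 (adjusted p = 0.00171, 0.00203 and 0.0419), with values of -0.35 (adjusted p = 0.323), -0.01 and 0.58 when centred on ribosomal protein genes. Type B replicate 2 decided the size of the Oaz3 value: it was 3.03 without that array (adjusted p = 1.35e-04) and 0.62 without replicate 1 (adjusted p = 0.0707). Odc1 read 0.88 and 0.57 in these settings (adjusted p = 0.0158 and 0.0828).

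Between type B and type A spermatogonia limma called 0 of the 8 genes, as it called 0% of all genes higher and 0% lower. At an unadjusted p under 0.05 it gave 713 genes higher and 520 lower, with 1 of the 8 members among them. That was Odc1 at 0.62 ± 0.21 (adjusted p = 0.613), where both type B arrays lay above both type A arrays. Oaz3 read 0.94 ± 0.64 (adjusted p = 0.658), and 2.14 without type B replicate 1 (adjusted p = 0.00331) against -0.26 without type B replicate 2.

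Around the members, 20 genes of polyamine supply, methionine recycling, transport and hypusine formation were listed, of which 17 had a probe set and 16 were tested. In round spermatids against type A, 3 were higher and 9 lower, with a median of -1.11, and in pachytene spermatocytes against type A, 2 were higher and 8 lower, with a median of -0.79. Over all tested genes 27.5% were higher and 41.0% lower in the first, with a median of -0.31, and 26.6% and 34.8% in the second, with a median of -0.14. Under ribosomal centring the list had 5 higher and 4 lower, and 4 higher and 4 lower. The 3 that were higher in round spermatids were Azin2, Satl1 and Arg2. Arg2 passed the filter on low signal through the round spermatid arrays alone. Satl1 passed it through pachytene and round spermatid arrays only, and Azin2 through no type A array. The count of 3, and that of 2 in pachytene spermatocytes, therefore rest in part on the filter. Azin2, an antizyme inhibitor known from testis and brain, read 6.2 and 4.8 in type A, 43.1 and 60.2 in pachytene cells, and 312.9 and 426.6 in round spermatids. Its change was 4.15 ± 0.33 log2 in round spermatids against type A (adjusted p = 4.595e-05) and 2.51 ± 0.33 against pachytene spermatocytes (adjusted p = 0.00116). The type A values lay far below the array medians, and the first change was 5.83 with a pseudocount of 1 and 2.63 with a pseudocount of 64.

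Satl1, an X-linked gene named for its likeness to Sat1, read 22.0 and 9.3 in type A, 41.4 and 43.2 in pachytene cells, and 357.2 and 378.1 in round spermatids. It was higher by 3.63 ± 0.27 in round spermatids against type A (adjusted p = 3.877e-05), or by 4.58 and 2.44 with pseudocounts of 1 and 64, whereas Sat1 was lower. Arg2, the mitochondrial arginase that makes ornithine, read 140.1 and 152.7 in round spermatids and 21.3 and 20.1 in pachytene cells. It lay below the array median on the 6 other arrays, so no test of it is given. Arg1, the liver arginase, lay at 4.0 or below on every array and was not tested. Oat, which takes ornithine away to other uses, was lower than in type A in pachytene spermatocytes (-2.16 ± 0.20, adjusted p = 1.788e-04) and in round spermatids (-1.66 ± 0.20, adjusted p = 2.34e-04).

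Genes of the methionine side were lower in round spermatids than in type A. On the same arrays the stromal, Sertoli, Leydig cell and macrophage marker sums were lower too. Of the macrophage markers, mean Csf1r, C1qa and Cd68 signals were lower. Those of Adgre1 (105.85 against 96.45) and Tyrobp (46.7 against 39.6) were higher. The part of these cell types in the falls of the listed genes was not tested. Mat2b, a subunit of methionine adenosyltransferase, read -2.22 ± 0.23, Mtap, which salvages the by-product of spermidine and spermine synthesis, -2.20 ± 0.25, and Ahcy, which clears S-adenosylhomocysteine, -1.36 ± 0.21 (adjusted p = 1.219e-04, 1.975e-04 and 8.068e-04). Of the transporters, the vesicular polyamine transporter Slc18b1 had the lowest value, at -2.91 ± 0.21 (adjusted p = 3.505e-05, with -3.83 and -1.80 at pseudocounts of 1 and 64), and the lysosomal Atp13a2 read -1.58 ± 0.26 (adjusted p = 0.00122). Atp13a3 fell in pachytene spermatocytes against type A (-1.32 ± 0.23, adjusted p = 0.00191) and was higher again in round spermatids against pachytene spermatocytes (0.97 ± 0.23, adjusted p = 0.0172). With ribosomal centring these read -0.55 (0.182) and 1.01 (0.0524), and the second call was kept in 12 of 17 alternatives, being lost without either spermatid array (0.0793 and 0.0984). Sat2, a gene of the Sat1 family, read -1.45 ± 0.34 in round spermatids against type A (adjusted p = 0.00684).

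Spermidine also supplies hypusine, a modified amino acid of the translation factor that Eif5a encodes. Dhps and Dohh, the enzymes that form it, were lower in round spermatids against type A, at -1.52 ± 0.22 and -0.56 ± 0.19 (adjusted p = 5.526e-04 and 0.03). The Dohh call was kept in only 8 of 17 alternatives. Dohh read -0.30 (adjusted p = 0.201) after quantile normalization and -0.11 (0.634) with 75th percentile centring, and turned to 0.25 when centred on ribosomal protein genes. Eif5a itself had signals of 3198.0 to 4019.2 on all 8 arrays and read -0.03 in round spermatids against type A, with a 95% interval of -0.46 to 0.40, or 0.78 with that centring. Ahcy, Atp13a2, Dhps and Sat2 lost their calls with that centring as well, at -0.55, -0.77, -0.71 and -0.64.

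**Figure D5:**
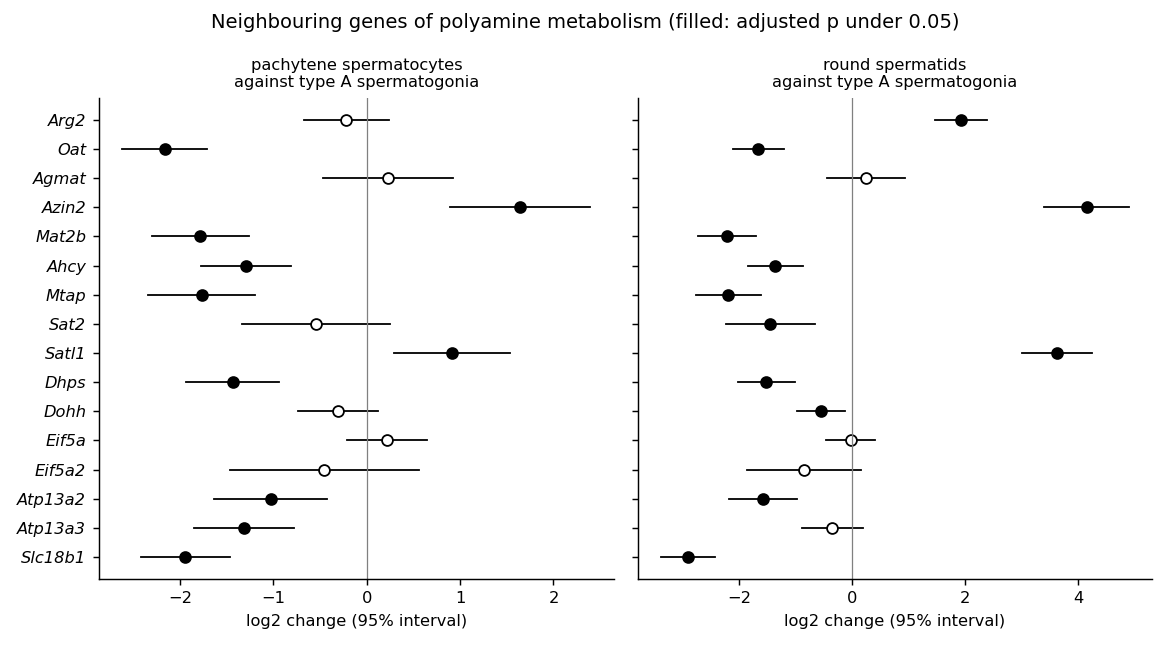
Log2 change with its 95% interval (horizontal axis) of the 16 tested genes around the polyamine route, in pachytene spermatocytes (left) and round spermatids (right) against type A spermatogonia; filled points passed the test. Azin2 and Satl1 were higher in round spermatids. Arg2 passed the filter on low signal through the round spermatid arrays alone, so its point there is not taken as a test. In round spermatids 9 genes lay below 0 with a call, where 41.0% of all tested genes were lower. With ribosomal centring 4 genes were lower.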

How the data were processed

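Expression was measured in 4 groups of 2 arrays, grouped by the titles in the labels. The authors deposited linear intensity values, 1 for each probe set on each array; the submitters' processing notes name MAS5, and its version and detection calls were not used here. After trimming 2% of probe sets at either end, mean intensity was 125 on all arrays, so total RNA per cell is not visible. The number of arrays limits the precision. Gene names come from the platform annotation, updated with a GRCm38.p6 gene table: 34945 of 45101 list 1 gene, and 34741 of these matched. Probe sets were tested where 2 or more of the 8 arrays gave a signal over that array's median. Values were analysed as log2(signal + 16) in R 4.3.3 with limma 3.58.1 (lmFit with 1 mean per group over 8 arrays, then eBayes, 4 residual degrees of freedom, prior 3.91), two-sided, with Benjamini-Hochberg adjustment over 28623 probe sets per comparison; the fit was tested on simulated data. A gene takes the call of its probe set with the highest mean. Named were all members, genes of a list of 20 neighbours that passed against type A, and the 5 genes most like each antizyme. The members and lists were chosen with earlier results of these data known. Pseudocount, filter, normalization, replicate block, unit of the fit, trend and left-out arrays were varied. Filter, replicate block, unit of the fit, trend and left-out arrays of other stages can change a value's adjusted p but not its log2 change. Counts of alternatives are therefore not counts of independent checks.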

Additional observations from a re-analysis of the deposited data

How the results depend on the processing

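Quantile normalization moved the median log2 change of all probe sets to 0.03, -0.03 and -0.18, and centring on the 75th percentile to 0.18, 0.11 and -0.01, from -0.14, -0.27 and -0.46 in pachytene spermatocytes against type B, pachytene spermatocytes against type A and round spermatids against type A. Centring arrays on 39 ribosomal protein genes moved it to 1.02, 0.50 and 0.35, and under it Srm and Smox against type B read 0.58 and 0.94 (adjusted p = 0.129 and 0.0155), Arg2, Dohh and Ahcy 1.02, 0.82 and 0.01, Smox in pachytene spermatocytes against type A 0.17, and Dohh and Eif5a in round spermatids against type A 0.25 and 0.78. No other single value with a call in either setting changed sign. In all, 52 values gained a call, 106 lost one and 2594 stayed called or stayed not called. Values not called in both settings could change sign among these 2594. The count of member genes called in round spermatids against pachytene spermatocytes, 2, was 1 with a pseudocount of 1, without the filter, with 75th percentile or ribosomal centring and with the replicate block, and 0 to 2 with single arrays left out, 0 without spermatid replicate 2; it was 3, with Srm gained, with a pseudocount of 64, with 1 probe set per gene and with eBayes with trend. In pachytene spermatocytes against type B the count of 6 was 2 to 6 with arrays left out: 3 without type B replicate 1 and 2 without either pachytene array. Between type B and type A it was 0 to 1, Oaz3 being called without type B replicate 1. The counts against type A were 5 to 7 in every setting run for pachytene spermatocytes and round spermatids. Same-numbered replicates share only a number: their deviations correlated at -0.175 to 0.169 between stages, and the replicate block gave 5 genes in place of 6 in pachytene spermatocytes against type B and against type A, losing Srm (adjusted p = 0.0505) and Smox (0.0644), and 6 as before in round spermatids against type A. The design has 2 arrays a stage, and a left-out array leaves 1 that is assumed to vary like the others. The causes were not tested.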
